A study of Homo sapiens with 4 samples.

Results

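Chemokine ligands are small secreted proteins that attract cells carrying matching receptors. The 10 genes described here encode the ligands CXCL1, CXCL2, CXCL3, CXCL5, CXCL8, CXCL10, CXCL11, CXCL14, CCL2 and CCL20. They were chosen by name, with earlier results of these data known. Every probe set of the array that the platform annotation assigned to exactly 1 of these genes was taken. This gave 22 of the 49293 probe sets. All 10 genes had at least 1, of 18132 genes with such a probe set in all. Messenger RNA was measured on 4 one-colour Affymetrix arrays of SCC-15, a long-established cell line from a human squamous cell carcinoma of the tongue. In 2 arrays the cells had received a microRNA mimic (a synthetic duplex that acts as the mature microRNA) and in 2 they had received miR-NC, a negative control oligonucleotide. Both groups were transfected 24 h after seeding, the mimic at 30 nM, and collected 36 h later, so the control cells had gone through transfection too. The comparison asks which of these genes differ in cells with the mimic. A single line was used, and nothing in the labels said that the arrays of a group came from separate cultures, and the spread behind every p-value is therefore that between arrays, possibly technical.

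The sources disagree on the mimic. The series title and design text give miR-762, whereas the sample labels give miR-585-5p. Both mature sequences, from RefSeq on GRCh38.p14, are shown because the name decides which seed (bases 2 to 8, in capitals) the cells received. No measurement of either mature microRNA is used here.
hsa-miR-762 (chr16:30893951-30893972, plus strand): gGGGCUGGggccggggccgagc
hsa-miR-585-5p (chr5:169263649-169263670, minus strand): cUAGCACAcagauacgcccaga

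As background, epithelial cells make many of these ligands when NF-kB, a transcription factor activated by interleukin 1, tumour necrosis factor and microbial products, enters the nucleus. CXCL1, CXCL2, CXCL3, CXCL5 and CXCL8 carry a Glu-Leu-Arg motif, bind the receptor CXCR2 and attract neutrophils. CXCL10 and CXCL11 are induced by interferons and attract T cells through CXCR3, CCL2 attracts monocytes through CCR2, and CCL20 attracts CCR6-bearing lymphocytes and dendritic cells. CXCL14 is made constitutively by normal squamous epithelium. The messenger RNAs of several of these genes hold AU-rich elements and are short-lived.

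The 10 genes did not move as one group. CXCL1, CXCL2 and CXCL3 were lower in the mimic arrays, by 2.40-fold, 1.81-fold and 1.32-fold, CXCL14, CXCL10 and CCL2 were higher, by 5.33-fold, 2.34-fold and 1.68-fold, and CXCL8 and CCL20 did not pass the test. CXCL5 and CXCL11 were too dim to enter the test, which left out probe sets under a log2 level of 2.83. Each gene was represented by its brightest probe set, values are log2 RMA intensities, and every difference is mimic minus control. With limma and a Benjamini-Hochberg adjusted p under 0.05 over 14340 genes, 6 of the 8 tested members passed, against 30.1% of all genes. Of these 3 were higher, where 17.7% of all genes were, and 3 were lower, where 12.3% of all genes were. As the members were chosen with earlier results known, their counts beside these shares are no test of the group. Those shares depended on scaling: 59.0% of all calls were higher, or 44.0% after a further quantile normalization, which left the members' 3 and 3 in place. The median difference was -0.05 over the 8 tested members and -0.02 over all genes. Groups did not overlap in 7 of the 8, against 70.4% of all genes: 3 members were higher in both mimic arrays (34.2% of all genes) and 4 lower (36.3%). A separation of the arrays was thus common among all genes. Of the members, CXCL14 ranked 7 from the top by difference and CXCL1 ranked 15 from the bottom. CXCL1 and CXCL14 passed 2-fold as well as the test, and so did CXCL10, where 2.06% of all genes rose and 0.195% fell by that much.

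**Figure D1:**
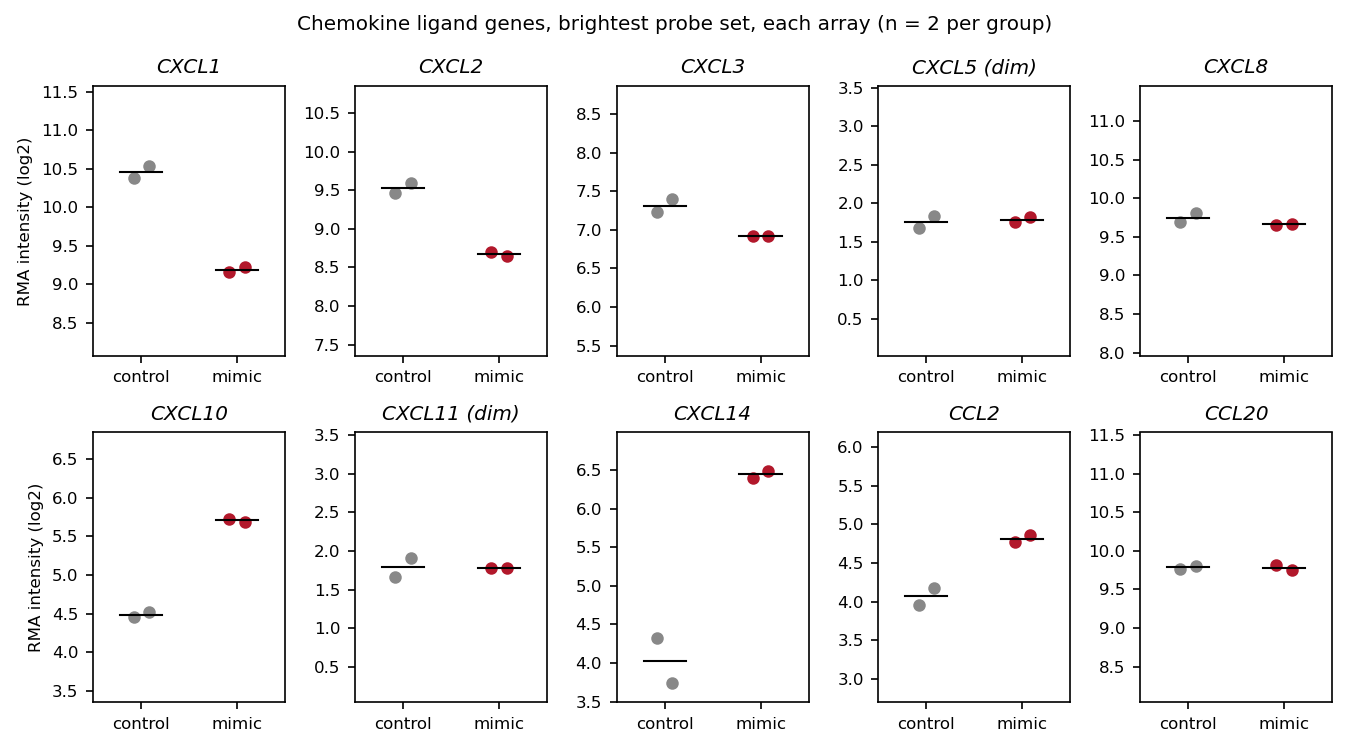
Log2 RMA intensity of the brightest probe set of each gene in every array, with 2 control arrays (grey), 2 mimic arrays (red) and a bar at each group mean; every panel spans the same range of log2 units, and levels are not comparable between genes. CXCL1 and CXCL2 are lower and CXCL10, CXCL14 and CCL2 higher in both mimic arrays, while CXCL8 and CCL20 sit at nearly the same level in all arrays.

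The neutrophil-attracting ligands CXCL1, CXCL2 and CXCL3 (also GRO alpha, beta and gamma) gave the decreases. CXCL1 was at 9.16 and 9.22 in the mimic arrays and at 10.37 and 10.53 in the controls. Its difference was -1.26 ± 0.077 (SE), with a 95% interval of -1.46 to -1.06 (limma, adjusted p = 0.00138). The other CXCL1 probe set, 11754114_a_at, read 6.91 and 6.85 with mimic and 7.91 and 8.02 in the controls, a difference of -1.09. Both CXCL1 probe sets thus separated the groups by more than 1 log2 unit, with SDs within a group of 0.040 to 0.11.

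CXCL2 was at 8.70 and 8.65 in the mimic arrays and at 9.47 and 9.59 in the controls. It fell by 0.85 ± 0.068 (SE), 95% interval -1.03 to -0.68 (limma, adjusted p = 0.00239). Its second probe set, 11744128_x_at, gave a difference of -0.94, from 9.21 and 9.26 to 8.31 and 8.29. No array of one group reached into the other for either probe set.

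CXCL3 moved least of these and depended on the probe set. The brighter one, 11728477_at, was at 6.92 in both mimic arrays and at 7.23 and 7.40 in the controls, a difference of -0.40 ± 0.077 (SE; limma, adjusted p = 0.0215). In a fit over all 49293 probe sets the same values gave an adjusted p of 0.0501 in limma. The dimmer one, 11728476_a_at, read 5.70 and 5.64 with mimic against 5.58 and 5.76 in overlapping groups, a difference of 0.0018 with a 95% interval of -0.23 to 0.23. With the mean of both taken for the gene the difference was -0.20 and did not pass (limma, adjusted p = 0.107), nor did it pass without control replicate 1 (-0.48, 0.0540) or control replicate 2 (-0.31, 0.0677). Messenger RNAs of these paralogs are closely similar, so their probe sets may pick up each other, and 1 further probe set was annotated to CXCL1 and CXCL2 together.

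CXCL8, which encodes interleukin 8, binds the same receptor, yet its brightest probe set was at 9.66 and 9.67 with mimic and at 9.69 and 9.81 in the controls. The difference of -0.085 had a 95% interval of -0.26 to 0.088 (limma, adjusted p = 0.372), so a change as large as that of CXCL1 or CXCL2 lay outside it. The 2 dimmer CXCL8 probe sets were lower by more. 11763226_x_at read 4.26 and 4.06 against 4.47 and 4.70 (-0.42, limma adjusted p over all probe sets 0.0856), and 11754026_a_at read 4.12 and 4.18 against 4.26 and 4.48 (-0.22, 0.209). All 3 probe sets had both mimic arrays below both controls, and none passed. CXCL5, the last ligand of this kind, was dim: its 3 probe sets lay between 1.03 and 1.84 in every array, under the level of 2.83, with differences of -0.22, -0.11 and 0.030 that did not pass.

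The promoters of CXCL1, CXCL2 and CXCL3 are shown with that of CXCL8 because these genes share an NF-kB match while their differences ranged from -1.26 to -0.085. Each line gives the bases before the RefSeq start on GRCh38.p14, written 5′ to 3′ along the gene. Capitals mark matches, on either strand, to the NF-kB core GGNNNTTCC or the AP-1 motif TGANTCA.
CXCL1 (chr4:73869293-73869392, plus strand): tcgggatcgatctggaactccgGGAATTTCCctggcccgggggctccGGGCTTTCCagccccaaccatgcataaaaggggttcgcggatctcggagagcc
CXCL2 (chr4:74099196-74099295, minus strand): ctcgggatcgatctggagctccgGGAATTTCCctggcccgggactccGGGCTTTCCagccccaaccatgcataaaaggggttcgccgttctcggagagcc
CXCL3 (chr4:74038690-74038789, minus strand): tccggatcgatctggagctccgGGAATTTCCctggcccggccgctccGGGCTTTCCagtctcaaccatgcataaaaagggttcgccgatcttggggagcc
CXCL8 (chr4:73740429-73740568, plus strand): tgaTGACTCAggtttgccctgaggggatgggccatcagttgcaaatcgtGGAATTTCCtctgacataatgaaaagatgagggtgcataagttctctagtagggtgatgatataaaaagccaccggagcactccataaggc

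In these 100 bases CXCL1 and CXCL2 were 94.1% identical, CXCL1 and CXCL3 90.0% and CXCL2 and CXCL3 89.1%. All 3 hold GGAATTTCC and, nearer the start, GGGCTTTCC. CXCL8 holds GGAATTTCC at bases -91 to -83 and an AP-1 match at -137 to -131. Of the 9 member promoters in the table, searched over 250 bases before the start, 8 held the NF-kB core, against 17.1% of 35116 promoters of the same length. The form GGAATTTCC or its reverse complement GGAAATTCC, itself a case of the core, was found in 7 of the 9, against 0.413% of all promoters. The 7 were CXCL1, CXCL2, CXCL3, CXCL5, CXCL8, CXCL10 and CXCL11, thus genes that fell, rose, did not pass or were dim. All motifs were chosen after the promoters were seen, and the promoters of CXCL1, CXCL2 and CXCL3 are closely similar. The motif counts therefore describe these promoters and are no test against the shares. In the RefSeq gene order on chromosome 4, CXCL5, CXCL3 and CXCL2 are neighbouring protein-coding genes, CXCL1 lies between PF4V1 and PF4, and CXCL8 lies next to CXCL6. A match is a run of letters and says nothing of binding, which was not measured.

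The interferon-inducible ligand CXCL10 went the other way. It was at 5.73 and 5.69 in the mimic arrays and at 4.46 and 4.52 in the controls, with its single probe set. The increase was 1.22 ± 0.060 (SE), 95% interval 1.07 to 1.38 (limma, adjusted p = 0.00112). The arrays of a group differed by far less than the groups, with SDs of 0.025 and 0.043. With 16 added to each intensity before log2, CXCL10 rose by 0.83, which is under 2-fold, and still passed. CXCL11, its neighbour on chromosome 4 and a ligand of the same receptor, was dim. The 3 probe sets of CXCL11 lay between 0.91 and 1.91 in all arrays, with differences of -0.0087, 0.14 and 0.18 that did not pass, so no change of CXCL11 was measurable at this level.

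The promoter of CXCL10 is shown because this gene rose while carrying NF-kB matches, as the genes that fell do, and because it was the 1 member promoter of 9 with the interferon-response core, GAAA and GAAA with any 2 bases between them (3.02% of all promoters). Capitals mark matches to that core and to the NF-kB core.
CXCL10 (chr4:76023498-76023737, minus strand): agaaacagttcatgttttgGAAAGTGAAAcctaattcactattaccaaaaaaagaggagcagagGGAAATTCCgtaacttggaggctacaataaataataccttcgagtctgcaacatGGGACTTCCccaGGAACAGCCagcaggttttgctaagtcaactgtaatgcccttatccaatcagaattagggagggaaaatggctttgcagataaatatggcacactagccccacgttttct

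CXCL14 had the largest difference among the tested members. Its brightest probe set, 11756059_a_at, was at 6.40 and 6.49 in the mimic arrays and at 4.33 and 3.74 in the controls. The difference was 2.41 ± 0.20 (SE), 95% interval 1.91 to 2.92 (limma, adjusted p = 0.00246). The control arrays differed from each other here (SD 0.41), and the gap was 2.12 without control replicate 2 and 2.71 without control replicate 1. A second probe set, 11717912_s_at, gave 2.42, from 3.98 and 3.65 to 6.24 and 6.23.

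However, 2 other CXCL14 probe sets did not follow. 11717910_at read 3.10 and 2.97 with mimic against 3.06 and 2.85, and 11717911_x_at read 2.82 in both mimic arrays against 2.82 and 2.66, each a difference of 0.08. Both were dim, 11717911_x_at below the level of 2.83 and 11717910_at just above it, and both were designed from the same sequence, which differs from those of the 2 brighter probe sets. With the mean of its probe sets that passed the level filter taken for the gene, the CXCL14 difference was 1.64, and with 16 added to each intensity before log2, which damps dim values, it was 1.67. It passed in both. The CXCL14 promoter, shown for contrast, was the 1 of 9 without an NF-kB match, and its capitals mark an AP-1 match, found in 3 of the 9 member promoters and 6.57% of all.
CXCL14 (chr5:135578992-135579091, minus strand): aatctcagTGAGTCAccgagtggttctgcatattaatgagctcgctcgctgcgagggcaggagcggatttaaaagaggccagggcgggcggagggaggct

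The 2 CC ligands measured here differed from each other. CCL2, the monocyte attractant, was at 4.77 and 4.86 in the mimic arrays and at 3.96 and 4.18 in the controls. It rose by 0.75 ± 0.092 (SE), 95% interval 0.51 to 0.99 (limma, adjusted p = 0.00658), on the single probe set of the gene. Leaving out control replicate 1 gave 0.64 and no call (limma, adjusted p = 0.0546), and with 16 added to each intensity the difference was 0.43.

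CCL20 was at 9.81 and 9.75 with mimic and at 9.77 and 9.81 in the controls, so that the groups overlapped. The difference was -0.0055 ± 0.060 (SE), with a 95% interval of -0.16 to 0.15 (limma, adjusted p = 0.953). Its promoter held 1 match to the NF-kB core and none to the shared form. No promoter of CCL2 was in the table used.

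Taking every probe set by itself, in the fit over the whole table, 4 of the 22 were higher and 4 lower, where 8.03% and 3.46% of all probe sets were. The 8 called compare with 11.5% of all probe sets, or 15.2% of those above the level. The 4 that fell were the pairs of CXCL1 and CXCL2, and the 4 that rose were those of CXCL10 and CCL2 and the brighter pair of CXCL14. Of the 22, 15 lay above the level of 2.83, and groups did not overlap in 14, against 58.6% of all probe sets. The 2 CXCL1 and the 2 CXCL2 probe sets differed from each other by less than 0.2 within a gene, whereas those of CXCL3, CXCL8 and CXCL14 did not give one value.

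**Figure D2:**
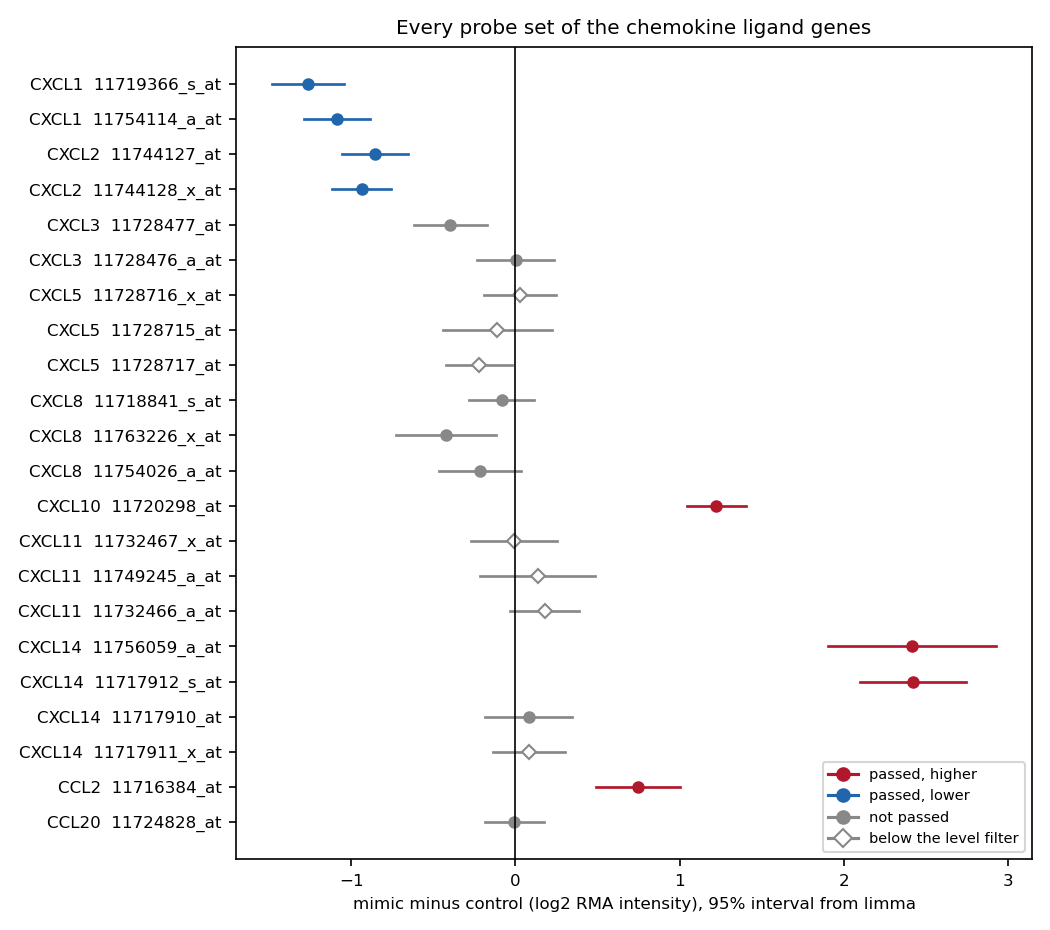
Difference between mimic and control (log2 RMA intensity) with its 95% interval for all 22 probe sets, from limma over 49293 probe sets; red and blue passed as higher and lower, grey did not pass, and open diamonds lay below the level filter. The pairs of CXCL1 and CXCL2 lie near -1, the brighter pair of CXCL14 lies above 2 and its dim pair at 0.08.

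The calls rest on few arrays. Without either mimic array no gene of the 14340 passed in limma (lowest adjusted p 0.0550 and 0.0551; 4198 and 4269 genes had p under 0.05 before adjustment), and the 6 called members had adjusted p between 0.0550 and 0.141, all 6 at an unadjusted p under 0.05 and with the same direction. Without control replicate 1, CXCL10 and CXCL14 passed as higher and CXCL1 and CXCL2 as lower, and without control replicate 2 CCL2 passed as well. With 2 arrays a group, the smallest two-sided p of an exact permutation test is 0.333, and none was used for single genes.

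**Figure D3:**
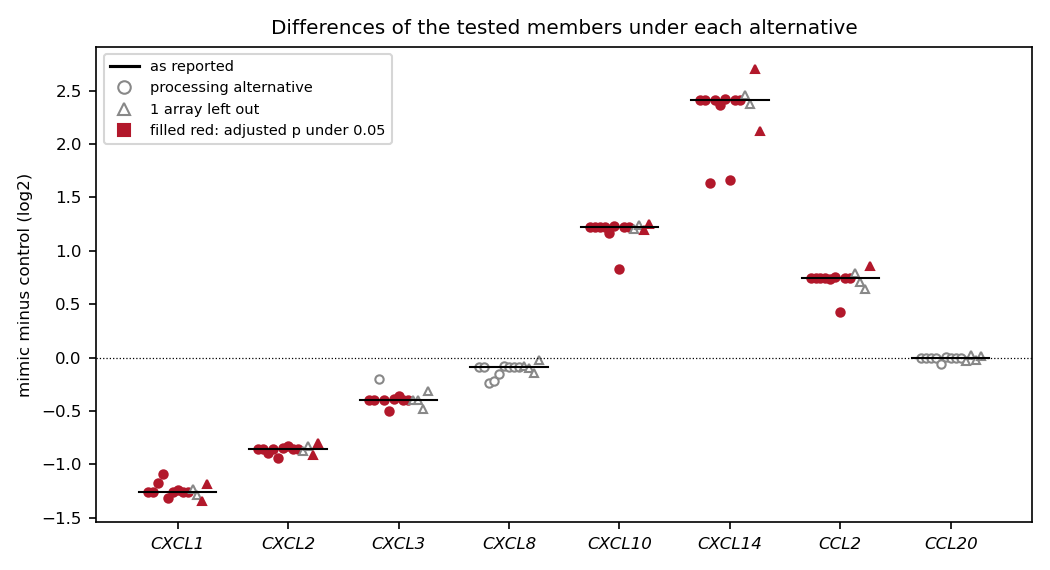
Difference between mimic and control (log2) of the 8 tested members as reported (black bar), under 9 processing alternatives (circles) and with each of the 4 arrays left out (triangles); filled red means an adjusted p under 0.05 in limma. The direction held for every member except CCL20, which lies at 0, and calls were lost mainly on leaving out an array.

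Of 36 other chemokine ligand genes, 30 had a probe set of 1 gene and 15 lay above the level. Of all genes, 17.7% rose and 12.3% fell. Among those 15 ligand genes, 0 rose in limma and 3 fell (CX3CL1 by 0.33, CCL22 by 0.29 and PF4V1 by 0.26), with a median of -0.08. At an unadjusted p under 0.05 1 was higher, CCL26, by 0.16. PF4V1 is nearly identical to PF4, and its call was lost in 3 of 9 processing alternatives. With the mean of a gene's probe sets 1 gene of the list fell, and CX3CL1, whose dimmer probe set gave -0.06, was at -0.19 (limma, adjusted p = 0.154). CXCL1 and CXCL2 had larger differences than these genes, and no direct test of that was made.

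Among the receptors, CXCR2 and CCR2 lay below the level, CCR6 gave -0.22 and did not pass, and CXCR3 fell by 0.35 ± 0.077 (SE; limma, adjusted p = 0.0284), from 5.10 and 5.25 to 4.87 and 4.78. Of 11 tested receptor genes 1 rose and 2 fell, against 17.7% and 12.3% of all genes. The one that rose was ACKR3, a scavenging receptor that binds CXCL11 and CXCL12, at 5.60 and 5.69 with mimic against 4.67 and 4.64 (0.99 ± 0.064, adjusted p = 0.00157). ACKR1, which binds many chemokines without signalling, fell by 0.39.

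Among 21 tested cytokines, receptors and adaptors of inducing pathways, 4 rose and 5 fell, against 17.7% and 12.3% of all genes. The 4 include IL1RN, which encodes an antagonist. IL1B, an inducer of CXCL1 and CXCL8, was at 8.47 and 8.52 with mimic against 7.33 and 7.42 in the controls (1.11 ± 0.064 SE, adjusted p = 0.0013 in limma). IL1RN, its antagonist, gave 0.92 in one probe set and -0.17 in the other. IL6, like CXCL1 an NF-kB target, fell by 2.37, from 8.03 and 8.31 to 5.76 and 5.85. The dimmer IL6 probe set gave -0.16, and the mean of both gave -1.26, which passed. Thus CXCL1 and CXCL2 were lower in arrays where the brighter IL6 probe set was lower and IL1B higher.

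Of 21 tested genes listed as NF-kB subunits and regulators (median -0.07), 2 rose and 5 fell, against 17.7% and 12.3% of all genes. The list also held CEBPB and the AP-1 genes FOS, JUN and FOSL1, and JUN was among those that rose, by 0.28. NFKBIZ, a nuclear co-activator of a subset of NF-kB targets, fell by 0.73 ± 0.056 (SE; limma, adjusted p = 0.00216), the inhibitor gene NFKBIB fell by 0.41, and the kinase gene MAP3K14 rose by 0.57. The NFKBIB call was lost without _s_at and _x_at probe sets (limma, adjusted p = 0.0834). The dimmer MAP3K14 probe set gave -0.0038, and the mean of both gave 0.28. The subunit genes RELA (-0.05), REL (0.12) and RELB (0.0020) and the inhibitor gene NFKBIA (-0.01) did not pass. The subunit genes NFKB1 (-0.26, limma adjusted p = 0.0292) and NFKB2 (-0.21, 0.0464) passed as lower, as did the co-regulator gene BCL3 (-0.27). The count of falls in this list ranged over the processing alternatives, from 2 without _s_at and _x_at probe sets (with 2 rises) to 8 after quantile normalization (with 2 rises).

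Of 17 tested interferon signalling genes, 3 rose and 3 fell, against 17.7% and 12.3% of all genes. IRF9, a subunit of the interferon-activated factor ISGF3, was at 7.43 and 7.14 with mimic and at 9.13 and 8.32 in the controls (-1.44 ± 0.28 SE, limma adjusted p = 0.0210), so that CXCL10 rose in arrays where this gene was lower. The IRF9 call was lost with a trended robust prior (limma, adjusted p = 0.0755). Its difference was -1.04 without control replicate 1 and -1.85 without control replicate 2. The feedback inhibitor gene SOCS3 fell by 0.58 and the receptor gene IFNAR2 rose by 0.37, although 1 of its 3 probe sets gave -0.0072. IRF1, a known activator of CXCL10, was at 0.00098 in its brightest probe set. The next, nearly as bright, gave -0.42 and passed as lower in the fit over all probe sets (limma, adjusted p = 0.0277). The dimmer ones, at -0.13 and -0.062, did not pass.

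A further list held 12 genes that bind or cleave chemokine messenger RNAs or stabilise them. Of these 5 rose and 0 fell in limma, against 17.7% and 12.3% of all genes. The median of the list was 0.14, and 0 of its genes were lower at an unadjusted p under 0.05. With a trended robust prior 6 were higher and 1 was lower. ZFP36L2, which promotes decay of AU-rich messenger RNAs, was at 9.40 and 9.46 against 8.06 and 8.06 in the controls, an increase of 1.37 ± 0.059 (SE; adjusted p = 0.00102). ELAVL1, which stabilises such messenger RNAs, rose by 0.67, with all 5 of its probe sets higher, and TRAF3IP2, an adaptor of the interleukin 17 receptor, rose by 0.59. Genes of opposite known action on AU-rich messages thus rose in the same arrays.

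**Figure D4:**
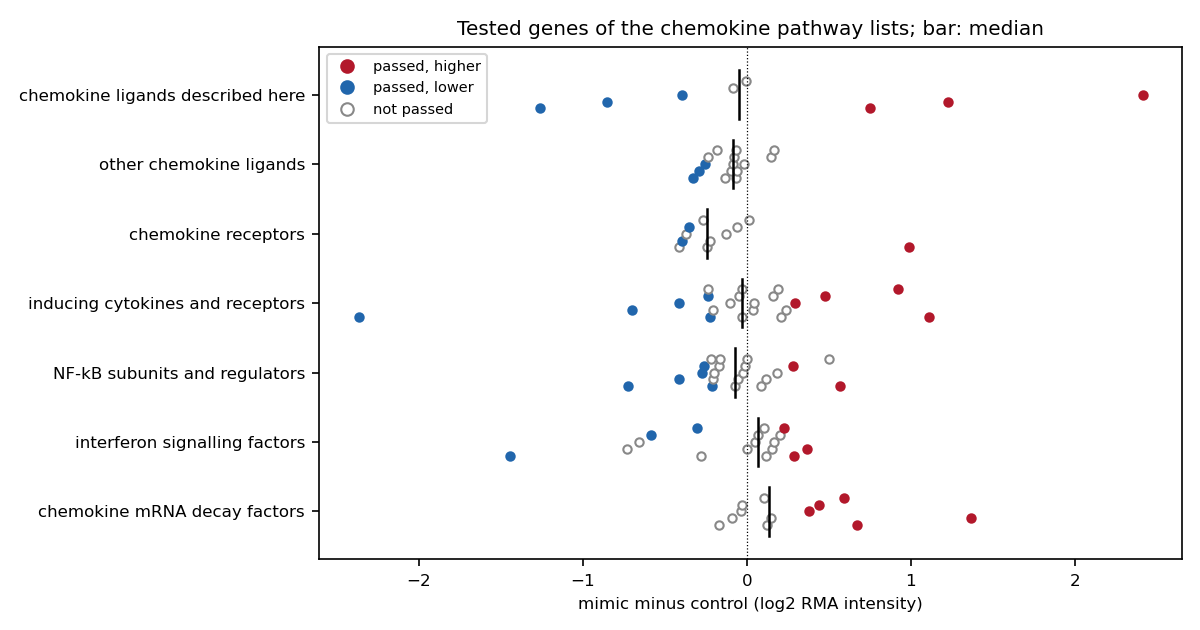
Difference between mimic and control (log2 RMA intensity) of each tested gene in the chemokine lists, filled where it passed as higher (red) or lower (blue), with a bar at each list's median. The 8 tested members spread from -1.26 to 2.41, and the medians of all lists lie between -0.24 and 0.14.

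The label of the cells was checked against markers. All 7 squamous epithelial markers with a probe set of 1 gene were above the level, with KRT5 between 11.80 and 12.31, and 3 of them (KRT14, PKP1 and KRT5) rose. Their summed intensity was 11127 to 11345 in the mimic arrays and 8545 to 8894 in the controls. The leukocyte marker PTPRC lay at or under 1.52 in every array, and below the level were 6 of 11 leukocyte markers, 6 of 10 fibroblast markers and 3 of 8 endothelial markers. Summed intensities, mimic against control, were 189 to 192 against 161 to 178 for the leukocyte list, 134 to 146 against 142 to 143 for the fibroblast list and 104 to 108 against 114 to 115 for the endothelial list. CD14 (0.53) and CD68 (0.34), which epithelial cells also make, rose, and no fibroblast or endothelial marker above the level passed. With no filter on level the fibroblast marker COL3A1 passed as lower, at -0.31 (limma, adjusted p = 0.0491), and CD68 did not pass (0.0571). No leukocyte marker passed after quantile normalization or without _s_at and _x_at probe sets. With quantile normalization, a 50% filter or 16 added before log2, 1 endothelial marker fell. The part of these shifts in the chemokine differences was not tested, and in a bulk sample fewer cells of a type and less RNA per cell cannot be told apart.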

How the data were processed

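The deposited table holds 1 intensity per probe set and array for 49293 probe sets. RMA was the authors' normalization, per the submitters' processing notes; its software is not given in the sources used here. Values are deposited intensities on a linear scale (medians 17.2 to 17.5), so log2 was taken. Depth has no meaning for arrays, and their number limits the precision. RMA compresses differences of dim probe sets.

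Of these probe sets, 44988 had 1 gene in the platform annotation, 44961 of which took the current symbol from RefSeq (GRCh38.p14) by gene identifier, 1832 had several and 2473 none, and both of these were left out. Probe sets whose mean over the 4 arrays lay in the lowest 30% (under 2.83, an intensity of 7.10) were left out, and the brightest probe set stood for each gene, blind to group. The test was limma 3.58.1 (R 4.3.3; lmFit and eBayes, no block, 4.98 total degrees of freedom) with Benjamini-Hochberg adjustment over 14340 genes and a threshold of 0.05. A second fit took every probe set. The fit was run on data simulated from its own variance model, which checks the code and not the calls. Errors are moderated SEs or SDs over 2 arrays.

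The members and lists were chosen with earlier results of these data known. Beyond the members, the text names the genes of each list that passed with the greatest differences, at most 3 a list, and IL1B, IL6, RELA, NFKBIA and IRF1 regardless of value. CCL26, PF4, CXCL6, CCR6, FOS, JUN, FOSL1, CEBPB, NFKB1, NFKB2, REL, RELB, BCL3, the markers and the dim receptors were named outside that rule. Replicate numbers are shared by both groups but are not said to pair arrays, and a replicate block was an alternative. Sequences come from RefSeq tables (Biopython 1.88 for alignment), and motifs were chosen after the promoters were seen.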

Additional observations from a re-analysis of the deposited data

How the results depend on the processing

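The counts of 3 members higher and 3 lower held under 8 of 9 processing alternatives: no filter on level, a 50% filter, _s_at and _x_at probe sets left out, 2 further normalizations, 16 added before log2, a trended robust prior and the replicate block. With the mean of a gene's probe sets 2 were lower, since CXCL3 did not pass. On leaving out each array, 0 to 3 members were higher, 0 to 2 lower, 0 member probe sets were called instead of 8, and 0 to 963 of all genes instead of 4310. With a replicate block 2918 genes, 6 member probe sets and all 6 members passed. Same-numbered arrays did not deviate together (r = -0.0010 across genes, 2 pairs), so the numbers are not taken to pair them. The block ended the calls of CCL22 (limma, adjusted p = 0.0517), PF4V1 (0.0630) and CXCR3 (0.0664). It left 1 fall among the other ligands and 1 rise and 2 falls in the NF-kB list. With the block the inducing genes had 3 rises and 2 falls, and the interferon genes 1 rise and 4 falls. The inducing genes had 4 rises and 2 falls with no filter on level. The interferon genes had 1 rise and 3 falls without _s_at and _x_at probe sets, and 2 and 4 after quantile normalization.

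Values near 0 changed sign. CCL20 was at 0.0026 with arrays shifted to one median and at -0.034 to 0.023 on leaving out an array. RELA was at 0.071 with the mean of probe sets and 0.17 without _s_at and _x_at probe sets, NFKBIA at 0.0073 with the mean and -0.027 to 0.0036 on leaving out an array, and IRF1 at -0.15 with the mean, -0.11 after quantile normalization, and -0.068 to 0.070 on leaving out an array. Without _s_at and _x_at probe sets IL1RN was at -0.17 and IFNAR2 at -0.0072. The causes were not tested. Of the 18 other named genes that passed, 8 lost the call in a processing alternative, and 7 and 8 kept it without control replicate 1 and 2.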

Other observations

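Values of 2 probe sets that the annotation assigns to a member and a second gene belong in no comparison above. The probe set 11763250_x_at of CXCL1 and CXCL2 read 5.56 and 5.73 in the mimic arrays and 6.75 and 6.61 in the controls, a difference of -1.03 (limma over all probe sets, adjusted p = 0.00721), close to the differences of the probe sets of either gene alone. The probe set 11717025_s_at of CXCL5 and GLYR1 read 7.26 and 7.21 against 7.23 and 7.14, a difference of 0.05 that did not pass (adjusted p = 0.684).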
